A study of Homo sapiens with 12 samples.

Results

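The genes described here are 10 genes of the eye field and of pigment formation, taken from the deposited table by symbol: OTX2, PAX6, LHX2, SIX3, MITF, TFEC, PMEL, TYR, TYRP1 and DCT. Each symbol matched 1 line, so the members are 10 of 40591 named genes. Polyadenylated RNA was sequenced from ARPE-19, an established cell line derived from human retinal pigment epithelium (RPE). The 12 libraries form 4 groups of 3. WT is ARPE-19 for which the labels give no added gene and no culture details. GFP, GSTA4 and OSK are ARPE-19 lines that stably carry an open reading frame (ORF) and were sampled after 4 days of its expression: a fluorescent protein, glutathione S-transferase alpha 4, and the reprogramming factors POU5F1, SOX2 and KLF4 (as OSK was read). The labels name no promoter or vector, and leave it unsaid if the libraries of a group are separate cultures, or come from several lines. The p-values therefore measure the spread between these libraries only, and an effect of an ORF and any other difference between the lines cannot be told apart. The comparisons ask how the members differ between the ORF lines and their GFP and WT controls.

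The eye field is the patch of anterior neural plate from which both retina and RPE form, and PAX6, LHX2, SIX3 and OTX2 are among the transcription factors that define it. In the part of the optic vesicle that becomes RPE, OTX2 and the basic helix-loop-helix factor MITF act together on pigment genes. TFEC is a close relative of MITF that is expressed in the RPE. Their classic targets build the melanosome: PMEL forms its amyloid fibrils, tyrosinase (TYR) catalyses the first steps of melanin synthesis, and TYRP1 and dopachrome tautomerase (DCT) act on later intermediates. MITF and its relatives bind the hexamer CATGTG, and its extended form TCATGTGCT, known as the M-box, is a feature of tyrosinase-family promoters. OTX2 is known to bind TAATCC.

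The promoters of the tyrosinase family are shown because these genes share the motif but differed widely in level. TYR and TYRP1 both fell against GFP in GSTA4 and in OSK, and DCT was too low to be tested. The sequences are RefSeq's (build GRCh38.p14), the 250 bases before an annotated start site on the gene's strand, 5′ to 3′. Capitals mark CATGTG, and TCATGTGCT where the longer motif is present, on either strand (as CACATG or AGCACATGA when reversed). The longer motif contains the shorter one. GPR143, a pigment cell receptor of melanosomes, was added after its values had been seen.
TYR, chr11:89177625-89177874, plus strand: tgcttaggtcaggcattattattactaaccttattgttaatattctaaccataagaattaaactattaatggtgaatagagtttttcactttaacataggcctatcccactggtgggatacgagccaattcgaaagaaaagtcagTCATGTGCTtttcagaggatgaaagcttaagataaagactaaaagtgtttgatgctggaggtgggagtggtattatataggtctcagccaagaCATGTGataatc
TYRP1, chr9:12693135-12693384, plus strand: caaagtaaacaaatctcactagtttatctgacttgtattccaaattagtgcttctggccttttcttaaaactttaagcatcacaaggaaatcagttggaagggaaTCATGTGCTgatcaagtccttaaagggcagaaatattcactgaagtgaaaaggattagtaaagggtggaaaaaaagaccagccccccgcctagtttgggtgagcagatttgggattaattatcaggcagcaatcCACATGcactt
DCT, chr13:94479683-94479932, minus strand: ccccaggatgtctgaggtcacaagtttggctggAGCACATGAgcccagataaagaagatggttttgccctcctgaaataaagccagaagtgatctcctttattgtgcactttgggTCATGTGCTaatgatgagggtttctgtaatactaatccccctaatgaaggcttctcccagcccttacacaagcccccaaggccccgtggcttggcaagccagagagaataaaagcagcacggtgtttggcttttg
GPR143, chrX:9765848-9766097, minus strand: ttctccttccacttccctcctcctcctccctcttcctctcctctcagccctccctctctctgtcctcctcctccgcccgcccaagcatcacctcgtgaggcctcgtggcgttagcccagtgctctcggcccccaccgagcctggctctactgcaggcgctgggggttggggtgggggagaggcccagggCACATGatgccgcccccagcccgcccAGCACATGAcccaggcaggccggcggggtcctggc
TCATGTGCT lay 105 bases before the start of TYR, 145 before that of TYRP1 and 135 before that of DCT, in each case on the gene's strand. The DCT window shown held it again on the opposite strand, 217 bases before that start, and GPR143 held it on the opposite strand, 35 bases before. Of 35116 windows of this length in the same table, 0.182% held TCATGTGCT, 9.42% held CATGTG and 5.62% held TAATCC on either strand. TYR held 2 CATGTG motifs and TYRP1 also held 2. TAATCC occurred in the windows shown of TYRP1, with 2 matches, and DCT, with 1. A window of DCT at another annotated start (chr13:94549407-94549656) held none of the 3 motifs. Of the other members, OTX2 and PAX6 held CATGTG in a window, and no window of MITF, LHX2 or TFEC did. The pigment gene TRPM1 was searched too, and its windows held 1 CATGTG each and no TCATGTGCT. Its window at chr15:31161161-31161410 also held 1 TAATCC. The table held 8 of the 10 members, all but SIX3 and PMEL. The starts used here are RefSeq's. The windows shown of TYR, TYRP1 and GPR143 lie inside the gene spans of GENCODE, whose coordinates are used below. A match describes these letters and not a bound site.

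The libraries held 12630675 to 17045454 reads. Levels are given as CPM (read counts scaled by library sizes that TMM adjusted for composition), and a count of 0 allows up to 3 reads, or 0.177 to 0.228 CPM. These limits cover counting error only. The ORF genes were high in the groups named for them: GSTA4 averaged 415 CPM in its group and 8.78 in GFP, and POU5F1, SOX2 and KLF4 averaged 778, 627 and 927 CPM in OSK and under 1 in GFP. WT replicate 1 stood apart. Over all genes, the chi-square of its counts against those of WT replicates 2 and 3 was 14.2 and 16.7 per degree of freedom, against 2.501 between those 2, so the members' calls against WT are also given without it. In GFP replicate 1, 27349 named genes had a read, where the other libraries had 19488 to 22073, and the members' calls against GFP are given without it too. For 31 other genes named, the effect on some calls is given after the gene lists. These are calls of GSTA4 and OSK against GFP without GFP replicate 1, and of GFP against WT without WT replicate 1. Of the 10 members, 8 passed the filter on low counts, and TFEC and DCT did not.

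OTX2, a homeobox factor needed to specify and maintain the RPE, fell in both ORF lines against GFP, and more in GSTA4. OTX2 (chr14:56799905-56810479) had 2892, 2554 and 3247 reads in the WT libraries and 2380, 2798 and 2874 in the GFP libraries. The GSTA4 libraries had 1998, 1836 and 1857 reads and the OSK libraries 2287, 2578 and 2211. As CPM the level came to 186 ± 5.91 (SD, n = 3) in WT, 192 ± 10.1 in GFP, 160.3 ± 4.28 in OSK and 131 ± 6.04 in GSTA4. The GSTA4 libraries were the lowest, the OSK libraries came next, and neither overlapped GFP or WT. The log2 fold change was -0.56 in GSTA4 against GFP (SE 0.0587, edgeR adjusted p 3.32e-07) and -0.26 for OSK (SE 0.0583, adjusted p 0.000999). OSK stood above GSTA4 by 0.30 (adjusted p 0.000294). GFP and WT differed by 0.05 (95% interval -0.08 to 0.17, adjusted p 0.625), and by 0.02 without WT replicate 1. In bulk RNA such as this, fewer cells that express a gene and less of its RNA per cell cannot be told apart.

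PAX6, the paired-box factor of eye development, varied least between groups among the 8 members tested. It lies at chr11:31784779-31818062 and had 2838, 2530 and 3228 reads in WT, 2414, 2548 and 2830 in GFP, 3008, 2567 and 2762 in GSTA4, and 2444, 2723 and 2534 in OSK. The level was 184 ± 7.06 CPM in WT, 186 ± 5.31 in GFP, 175 ± 3.05 in OSK and 191 ± 1.33 in GSTA4. The OSK libraries lay below those of GFP and GSTA4 and overlapped those of WT. No pair of groups passed the threshold, and the test over the 4 groups gave an adjusted p of 0.175 where 66.9% of all 15179 genes tested passed it. The largest difference, OSK against GSTA4, was -0.13 (95% interval -0.24 to -0.02, adjusted p 0.0518). That difference passed at library size alone (-0.19, adjusted p 0.00314), where OSK against GFP did too (-0.16, adjusted p 0.0121). An annotated 25.2% of the exon bases of PAX6 are also exon of ELP4 on the other strand, and the counting strand is not given in the sources used here. ELP4 had 121 to 210 reads per library.

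LHX2, a LIM homeobox factor of the optic vesicle, was highest in WT, lower in GFP and lowest in GSTA4 and OSK. Its counts at chr9:124001670-124033301 were 2030, 1652 and 2038 in WT, 1389, 1379 and 1584 in GFP, 1223, 896 and 944 in GSTA4, and 875, 1043 and 882 in OSK. In CPM that was 122 ± 3.22 in WT, 104 ± 4.59 in GFP, 63.4 ± 2.24 in OSK and 69.9 ± 6.80 in GSTA4. WT, GFP and the pair of GSTA4 and OSK formed 3 ranges that did not overlap. LHX2 fell by 0.57 on the log2 scale in GSTA4 against GFP (SE 0.0692, adjusted p 2.22e-06) and by 0.71 for OSK against GFP (SE 0.0695, adjusted p 4.07e-08). It was already lower in GFP than in WT, by -0.24 (adjusted p 0.0155), or -0.22 without WT replicate 1 (adjusted p 0.0335). Without GFP replicate 2 that last difference missed the threshold (-0.20, adjusted p 0.0856). GSTA4 and OSK differed by -0.14 (95% interval -0.29 to 0.005, adjusted p 0.105), a call gained at library size alone (-0.21, adjusted p 0.026).

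SIX3, a homeobox factor of the anterior neural plate that represses Wnt signalling there, rose in OSK alone among the ORF lines tested against GFP. The counts, at chr2:44941898-44946077, were 2250, 2507 and 2224 in OSK. They were 1727, 1243 and 1736 in WT, 1242, 1511 and 1711 in GFP, and 1643, 1367 and 1503 in GSTA4. The OSK level of 158 CPM ± 1.83 stood above every other library. WT had 100.2 ± 8.26, GFP 106 ± 11.02 and GSTA4 103 ± 0.900, and these 3 groups overlapped. The log2 fold change of OSK was 0.57 against GFP (SE 0.0713, adjusted p 1.24e-06), 0.61 against GSTA4 (SE 0.0713, adjusted p 3.79e-07) and 0.66 against WT (SE 0.0712, adjusted p 1.66e-07). In GSTA4 against GFP the value was -0.04 (95% interval -0.19 to 0.11). SIX3 and LHX2 thus moved in opposite directions in OSK against GFP.

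The lines next to these genes were read too. SIX3-AS1, whose annotated start is beside that of SIX3 on the other strand, had 167, 163 and 137 reads in OSK, 56, 49 and 46 in GFP, 55, 50 and 78 in GSTA4 and 42, 49 and 37 in WT. It rose with SIX3, by 1.55 for OSK against GFP (SE 0.213, adjusted p 4.62e-06), and the annotation shows no shared exon. SIX2, a neighbour of the same family, had 15, 16 and 15 reads in OSK and 0, 2 and 1 in GFP. OTX2-AS1, upstream of OTX2 on the other strand, had 20, 24 and 17 reads in GSTA4, 17, 15 and 36 in OSK and 38, 74 and 47 in GFP. It fell by 1.43 in GSTA4 (SE 0.407, adjusted p 0.0115) and by 1.28 in OSK (SE 0.401, adjusted p 0.0126), the same direction as OTX2. Both OTX2-AS1 calls were lost without GFP replicate 2, at -1.12 and -0.96. The former was also lost without GSTA4 replicate 3 (-1.31), and the latter without OSK replicate 1 (-1.13) or 2 (-1.01).

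MITF, the factor that drives pigment genes in RPE cells and melanocytes, fell in both ORF lines against GFP, and more in OSK. MITF (chr3:69739435-69968337) had 3012, 2939 and 3702 reads in WT, 3197, 3539 and 3718 in GFP, 2681, 2647 and 2758 in GSTA4, and 2026, 2235 and 2163 in OSK. The level was 207 ± 17.2 CPM in WT, 249 ± 5.82 in GFP, 146 ± 5.55 in OSK and 186 ± 14.5 in GSTA4. GFP was the highest group and OSK the lowest, and neither overlapped another group. WT and GSTA4 overlapped. The log2 fold change was -0.42 in GSTA4 against GFP (SE 0.0678, adjusted p 6.97e-05), -0.78 for OSK against GFP (SE 0.0684, adjusted p 9.09e-09) and -0.35 for OSK against GSTA4 (SE 0.0685, adjusted p 0.000233). GFP exceeded WT by 0.27 (adjusted p 0.00702), and by 0.20 without WT replicate 1 (adjusted p 0.0326). GSTA4 against WT was -0.15 (adjusted p 0.0795), and without WT replicate 1 it was -0.22 and past the threshold (adjusted p 0.00709). The table has 1 line for MITF, so its isoforms with different first exons were not separated.

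TFEC, at chr7:115935148-116159896, was near the limit of detection. It had 5, 1 and 2 reads in WT, 7, 7 and 0 in GFP, 1, 1 and 4 in GSTA4, and 0, 0 and 1 in OSK. No test was made at these counts. The other 2 members of the MiT/TFE family, TFE3 and TFEB, which act on lysosome genes, both rose in OSK against GFP, where MITF fell. TFE3 had 2076, 2149 and 1970 reads in OSK, 2029, 1617 and 1747 in GSTA4, 1305, 1546 and 1453 in GFP, and 2255, 1695 and 2072 in WT. It rose against GFP by 0.26 in GSTA4 (SE 0.0674, adjusted p 0.00551) and by 0.45 in OSK (SE 0.0671, adjusted p 1.28e-05), and was lower in GFP than in WT (-0.33, adjusted p 0.0017). TFEB, with 10.98 CPM ± 0.355 in OSK and 7.27 ± 2.45 in GFP, rose by 0.59 (adjusted p 0.0106), a call that was lost without GFP replicate 1 (0.42) or GFP replicate 2 (0.51). Against WT, TFE3 was not called in GSTA4 (-0.06, adjusted p 0.488) or OSK (0.13, adjusted p 0.132). TFEB was higher than WT in OSK by 0.96 (adjusted p 0.000192) and not called in GSTA4 (0.34, adjusted p 0.168).

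**Figure D1:**
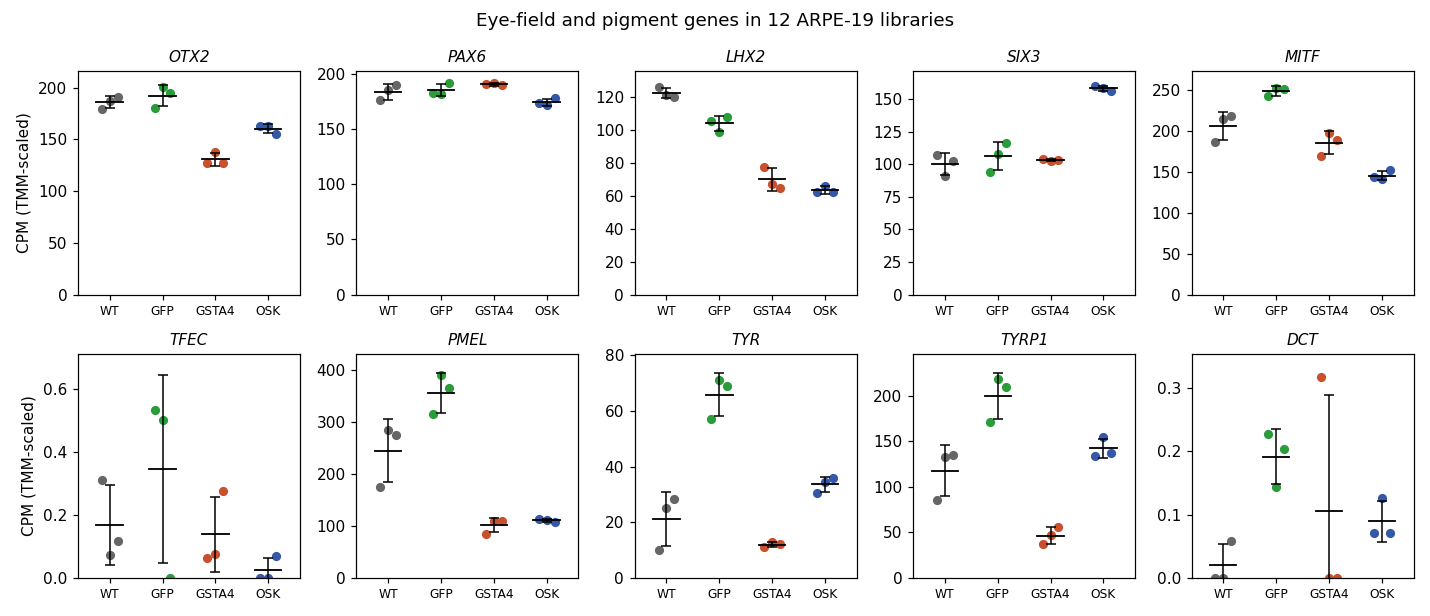
Level of each of the 10 genes in the 12 libraries, in CPM after TMM scaling on a linear axis that starts at 0, by group. Points are libraries, the long bar is the group mean and the whiskers are 1 SD (n = 3). PAX6 lies in 1 narrow band, SIX3 is highest in OSK, and PMEL, TYR and TYRP1 are highest in GFP and low in GSTA4, while TFEC and DCT stay below 1 CPM.

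PMEL, TYR and TYRP1 were highest in GFP and fell steeply in GSTA4, where TYR and TYRP1 were at their lowest group mean. In OSK against GFP all 3 fell too, TYR and TYRP1 to higher levels than in GSTA4.

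PMEL, the fibril protein of the early melanosome (chr12:55954105-55973317), had 4147, 5452 and 5373 reads in GFP and 2819, 3875 and 4659 in WT. GSTA4 had 1343, 1468 and 1582 reads and OSK 1600, 1746 and 1540. The level was 357 ± 38.3 CPM in GFP, 245 ± 60.4 in WT, 111 ± 2.77 in OSK and 101 ± 14.0 in GSTA4. All 6 ORF libraries of GSTA4 and OSK lay below every control library, and the ranges of these 2 groups overlapped. PMEL fell 3.52-fold in GSTA4 against GFP (log2 -1.82, SE 0.133, adjusted p 1.31e-09) and 3.22-fold in OSK (log2 -1.69, SE 0.132, adjusted p 1.54e-09). OSK and GSTA4 differed by 0.13 (95% interval -0.15 to 0.41, adjusted p 0.45). Of the exon bases of PMEL, 2.28% are annotated as exon of CDK2 on the other strand. CDK2 had 270 to 472 reads per library, and fell by 0.55 in GSTA4 against GFP (SE 0.106, adjusted p 0.000503).

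TYR, at chr11:89177452-89295759, had the widest relative range between libraries among the 8 members tested. Its counts were 163, 344 and 480 in WT, 753, 996 and 1019 in GFP, 172, 170 and 176 in GSTA4, and 431, 546 and 511 in OSK. In CPM that was 21.2 ± 9.72 in WT, 65.9 ± 7.61 in GFP, 33.7 ± 2.74 in OSK and 11.9 ± 0.927 in GSTA4. GFP, OSK and GSTA4 formed 3 ranges with no overlap, and WT replicate 1, at 10.1 CPM, lay below all GSTA4 libraries while WT replicates 2 and 3 lay at 25.2 and 28.3. TYR fell 5.54-fold in GSTA4 against GFP (log2 -2.47, SE 0.219, adjusted p 2.54e-08) and 1.96-fold in OSK against GFP (log2 -0.97, SE 0.197, adjusted p 0.000413). OSK exceeded GSTA4 by 1.502 (SE 0.224, adjusted p 1.11e-05).

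TYRP1 (chr9:12685439-12710290) had the same order of group means as TYR, but its ranges of OSK and WT overlapped and those of WT and GSTA4 did not, the reverse of TYR. It had 1378, 1807 and 2300 reads in WT and 2262, 3058 and 3088 in GFP. GSTA4 had 579, 621 and 813 reads, and OSK had 1891, 2445 and 1961. The level was 118 ± 28.0 CPM in WT, 200.1 ± 24.96 in GFP, 142 ± 10.8 in OSK and 46.4 ± 9.56 in GSTA4. GSTA4 stood below, and GFP above, every library of the other groups. TYRP1 fell 4.32-fold in GSTA4 against GFP (log2 -2.11, SE 0.148, adjusted p 7.18e-10) and 1.41-fold in OSK against GFP (log2 -0.49, SE 0.138, adjusted p 0.00603). OSK exceeded GSTA4 by 1.62 (SE 0.148, adjusted p 1.14e-08). LURAP1L-AS1 shares 2.73% of the exon bases of TYRP1 on the other strand and had 2 to 29 reads per library.

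DCT, the third enzyme of the family (chr13:94436808-94479682), was hardly detected. It had 0, 0 and 1 reads in WT, 3, 2 and 3 in GFP, 5, 0 and 0 in GSTA4, and 1, 2 and 1 in OSK. The most reads were in a GSTA4 library whose group also held 2 libraries at 0, and no order of the groups can be read from these counts. The DCT window printed above, 1 of 2 in the table, holds the same TCATGTGCT motif as those of TYR and TYRP1, which had 163 to 1019 and 579 to 3088 reads.

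Levels of different genes can be set side by side only per length, here as mean CPM per kilobase of annotated exon. In WT the order was PMEL at 62.7 ± 15.5, OTX2 at 56.9 ± 1.81, LHX2 at 46.1 ± 1.21, SIX3 at 39.7 ± 3.28, TYRP1 at 31.5 ± 7.48, MITF at 28.8 ± 2.39, PAX6 at 8.84 ± 0.339 and TYR at 7.03 ± 3.22, with TFEC and DCT last. The means of PMEL and OTX2, of TYRP1 and MITF, and of PAX6 and TYR lay within 1 SD of the more variable gene of each pair. In GFP, PMEL led at 91.4 ± 9.82, and in GSTA4 it stood at 26.0 ± 3.58, below SIX3 at 41.0 ± 0.357 and OTX2 at 39.9 ± 1.84. LHX2 at 26.3 ± 2.56 and MITF at 25.9 ± 2.01 lay within 1 SD of PMEL there, as OTX2 did of SIX3. In OSK the first place went to SIX3, at 62.7 ± 0.725, and TYRP1, at 38.0 ± 2.89, stood above PMEL, at 28.4 ± 0.709. The exon length of PAX6, 20.8 kilobases over all annotated transcripts, lowers its value on this scale.

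Read by comparison, 6 of the 8 members tested were lower in GSTA4 than in GFP, and none was higher, where 29.2% of all genes tested were called in either direction and 14.6% as lower. No library of one group reached into the range of the other in 6 of 8 members and in 42.3% of all genes. The members' median log2 fold change was -0.56, against 0.01 over all genes tested. PAX6 and SIX3 were the 2 not called. In OSK against GFP, 6 members were lower and 1, SIX3, was higher, where 45.9% of genes were called, 22.8% as lower and 23.1% as higher. All 8 members separated the groups, as did 54.7% of genes, and the median was -0.60 against -0.02. Both comparisons use the same GFP libraries. Without GFP replicate 1 the counts were 6 lower in GSTA4, and 6 lower with 1 higher in OSK, as before. The values in GSTA4 and OSK were then -2.56 and -1.06 for TYR, -2.21 and -0.59 for TYRP1, -1.90 and -1.77 for PMEL, -0.44 and -0.79 for MITF, -0.60 and -0.30 for OTX2, and -0.56 and -0.70 for LHX2, and SIX3 in OSK was at 0.497.

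OSK against GSTA4 set the ORF lines directly against each other. OTX2, SIX3, TYR and TYRP1 were higher in OSK and MITF was lower, so 5 of 8 members were called where 47.8% of genes were (24.1% higher, 23.8% lower). Ranges were apart in 6 members and in 58% of genes. The count is close to the background. The log2 differences of TYR and TYRP1, 1.502 and 1.62, stand beside a median size of 0.33 over all genes.

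The controls differed among themselves. In GFP against WT, MITF, PMEL, TYR and TYRP1 were higher and LHX2 was lower, 5 of 8 members where 22.2% of genes were called (11% higher, 11.2% lower). No overlap was seen in 5 members and in 34.6% of genes. TYR was higher in GFP by 1.64 (SE 0.204, adjusted p 1.11e-05), TYRP1 by 0.76 (SE 0.139, adjusted p 0.00055) and PMEL by 0.54 (SE 0.127, adjusted p 0.00435). Without WT replicate 1 these 5 members were again past the threshold, and the 3 values were 1.29, 0.57 and 0.35.

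Set against WT, 5 members were lower in GSTA4 and none was higher, where 38.6% of genes were called (19.7% higher, 19% lower), and 4 members separated the groups where 49% of genes did. PMEL was lower by -1.27 (adjusted p 1.86e-07), TYRP1 by -1.35 (adjusted p 4.16e-07), LHX2 by -0.81 (adjusted p 1.09e-08), OTX2 by -0.51 (adjusted p 7.51e-07) and TYR by -0.83 (adjusted p 0.00704). Without WT replicate 1 these were -1.47, -1.54, -0.79 and -0.54 for the first 4, and MITF was called too (6 lower). The TYR libraries of WT and GSTA4 overlapped through WT replicate 1. Without it the TYR value was -1.17 (adjusted p 1.51e-09), and without WT replicate 3 it was -0.55 and missed the threshold (adjusted p 0.07).

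In OSK against WT, SIX3 and TYR were higher and OTX2, MITF, LHX2 and PMEL were lower, where 45.4% of genes were called (22.7% higher and 22.7% lower), and 6 members separated the groups where 53.5% of genes did. LHX2 was lower by -0.95 (adjusted p 3.97e-10) and PMEL by -1.14 (adjusted p 3.75e-07). Without WT replicate 1 the same number was called, with -0.93 for LHX2, -1.33 for PMEL, -0.57 for MITF, -0.24 for OTX2 and 0.71 for SIX3. TYR was higher by 0.67 (adjusted p 0.0124), or 0.33 without WT replicate 1 (adjusted p 0.013), and DESeq2 did not call it (0.68, adjusted p 0.0869). TYRP1 was not called (0.27, adjusted p 0.12, and 0.09 without WT replicate 1). The direction of TYR in OSK thus depended on the control: lower than GFP and higher than WT.

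**Figure D2:**
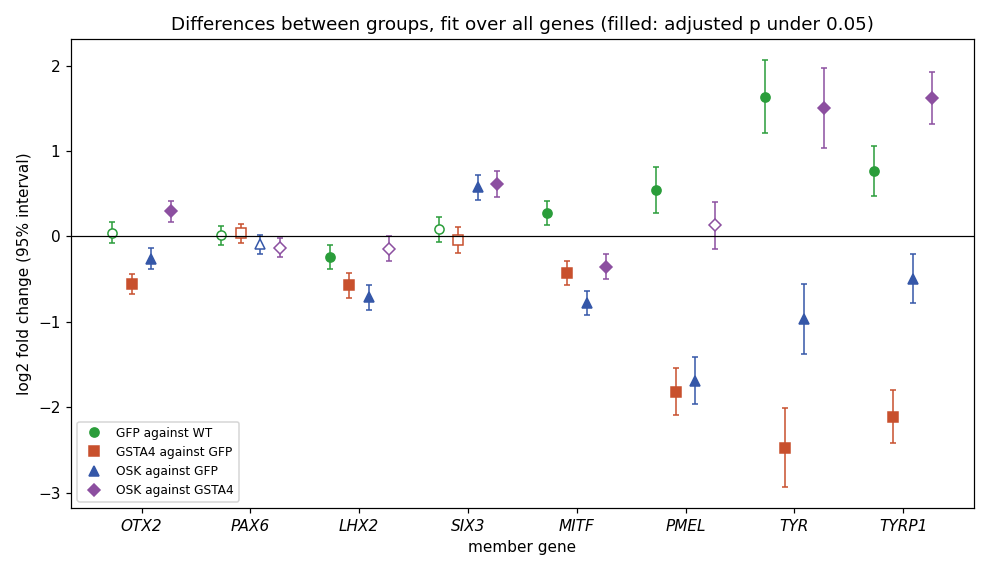
Log2 fold changes of the 8 members tested in 4 comparisons, from the fit over all genes. Symbols are the fitted values, whiskers their 95% intervals, and filled symbols have an adjusted p under 0.05. PMEL, TYR and TYRP1 fall furthest in GSTA4 against GFP, at -1.82, -2.47 and -2.11, and in OSK against GSTA4 TYR and TYRP1 lie at 1.502 and 1.62 while PMEL lies at 0.13.

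Within a library, the ratio of 2 genes' counts does not depend on the scaling, and gene length leaves its change between libraries untouched. TYRP1 to PMEL stood at 0.466 to 0.494 in WT, 0.545 to 0.575 in GFP and 0.423 to 0.514 in GSTA4, and at 1.18, 1.40 and 1.27 in OSK. The 3 OSK libraries thus stood apart from the other 9. TYR to PMEL rose in the same direction, from 0.0578 to 0.103 in WT and 0.182 to 0.190 in GFP to 0.269 to 0.332 in OSK, with 0.111 to 0.128 in GSTA4. TYR to TYRP1 was 0.326 to 0.333 in GFP, 0.217 to 0.297 in GSTA4, 0.223 to 0.261 in OSK and 0.118 to 0.209 in WT.

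Among the factors, SIX3 to LHX2 was 0.752 to 0.852 in WT, 0.894 to 1.10 in GFP, 2.40 to 2.57 in OSK and 1.34 to 1.59 in GSTA4, with no overlap between groups. OTX2 to PAX6 was 0.664 to 0.715 in GSTA4 and 0.873 to 1.10 in the 9 other libraries. MITF to OTX2 was highest in GSTA4, at 1.34 to 1.49, although its lowest library there lay just under the highest of GFP (1.34). It was lowest in OSK, at 0.867 to 0.978.

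**Figure D3:**
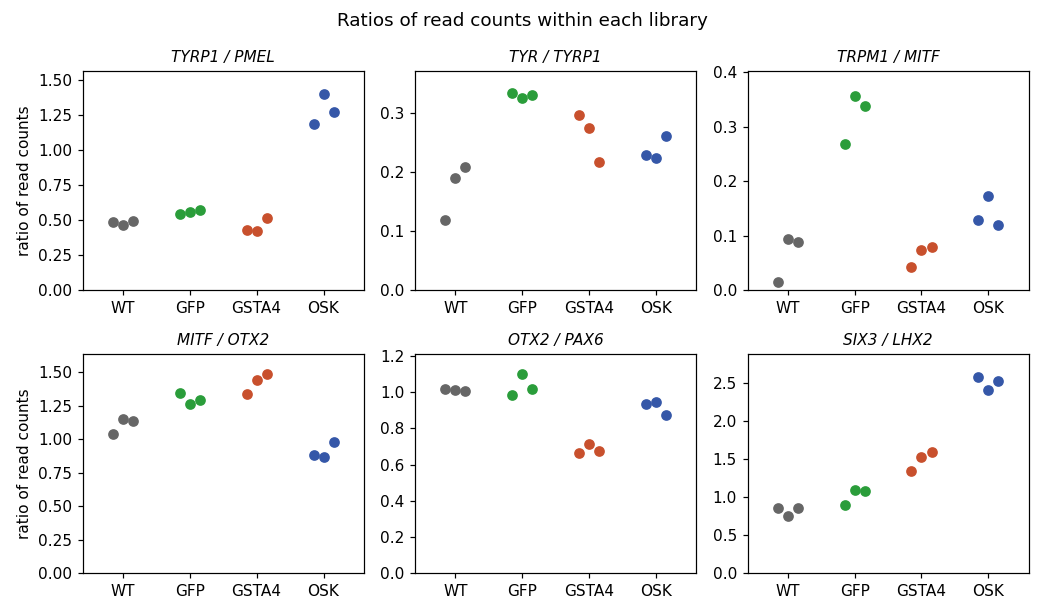
Ratio of the read counts of 2 genes within each library, for 6 pairs, on linear axes that start at 0. Each point is a library. TYRP1 to PMEL separates OSK (1.18 to 1.40) from the other 9 libraries (0.423 to 0.575), OTX2 to PAX6 separates GSTA4, and SIX3 to LHX2 separates all 4 groups.

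Beyond the members, the pigment list of 38 genes (melanosome proteins, their transport and sorting machinery, and pigment ion channels) had 36 genes tested. In GSTA4 against GFP, 3 rose, 7 fell and 26 were not called, with a median of -0.02. In OSK against GFP, 12 rose and 12 fell, with a median of -0.04, and in GFP against WT 7 were higher and 3 lower, with a median of 0.07. These shares lie near the backgrounds given above, apart from OSK, where 24 of 36 were called.

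Single genes of that list differed widely. TRPM1, a cation channel of pigment cells and retinal bipolar cells, had 855, 1258 and 1256 reads in GFP and 44, 278 and 325 in WT. It had 112, 194 and 218 in GSTA4 and 261, 385 and 258 in OSK. GFP stood above every other library, and WT replicate 1 was the lowest. TRPM1 fell by 2.73 in GSTA4 (SE 0.353, adjusted p 5.37e-06) and by 1.97 in OSK (SE 0.332, adjusted p 5.57e-05) against GFP, and was higher in GFP than in WT by 2.52, or 2.02 without WT replicate 1. With all 12 libraries TRPM1 was not called against WT, at -0.21 in GSTA4 (adjusted p 0.71) and 0.54 in OSK (adjusted p 0.242). WT replicate 1 weighs on both values: it had 2.73 CPM, beside 20.4 and 19.2 in WT replicates 2 and 3. The GSTA4 libraries had 7.11 to 15.0 CPM and the OSK libraries 18.1 to 24.3. Neither comparison is given here without WT replicate 1.

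HPS5, a subunit of a complex that sorts cargo to melanosomes, moved in opposite directions in the ORF lines. It had 629, 557 and 621 reads in GSTA4, 2325, 3109 and 2746 in OSK, 1323, 1492 and 1614 in GFP and 1072, 1062 and 1255 in WT. It fell by 1.35 in GSTA4 against GFP (SE 0.0774, adjusted p 3.35e-11), rose by 0.81 for OSK against GFP (SE 0.0721, adjusted p 1.1e-08) and differed by 2.16 between OSK and GSTA4 (SE 0.0771, adjusted p 3.86e-15). HPS1, of another sorting complex, rose in both, by 0.64 (adjusted p 3.01e-07) and 0.32 (adjusted p 0.000515).

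SLC7A11, the cystine transporter that feeds the red form of melanin and glutathione synthesis, had 124, 170 and 150 reads in OSK and 12 to 21 in GFP, a rise of 3.12 (SE 0.259, adjusted p 3.55e-09). MYO7A, a motor of melanosomes in RPE, had 7966 reads in WT replicate 1 and 3175 and 3447 in the other WT libraries. It was lower in GFP than in WT by -0.98, or -0.48 without WT replicate 1. Against GFP, where it had 2100 to 2313 reads, it fell by 0.90 in GSTA4 (adjusted p 0.00247) and by 0.70 in OSK (adjusted p 0.00859, and 0.0773 by DESeq2). GPR143, whose promoter window is printed above, fell by 0.64 in GSTA4 (adjusted p 1.67e-05) and by 0.81 in OSK (adjusted p 3.16e-07). It was higher in GFP than in WT by 0.59 (adjusted p 9.83e-05). Against WT it was not called, at -0.05 in GSTA4 (adjusted p 0.705) and -0.22 in OSK (adjusted p 0.0569). In WT replicates 1 to 3 it had 48.0, 55.9 and 62.1 CPM, beside 48.2 to 58.8 in GSTA4 and 45.1 to 49.5 in OSK. MLPH, a link between melanosomes and their motor, and SLC45A2, a melanosome transporter, were singled out after their values had been seen. MLPH had 23, 27 and 29 reads in GSTA4 and 78 to 101 in GFP (log2 -1.78, adjusted p 5.27e-06), and SLC45A2 was higher in GFP than in WT by 1.67 (adjusted p 2.6e-05).

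**Figure D4:**
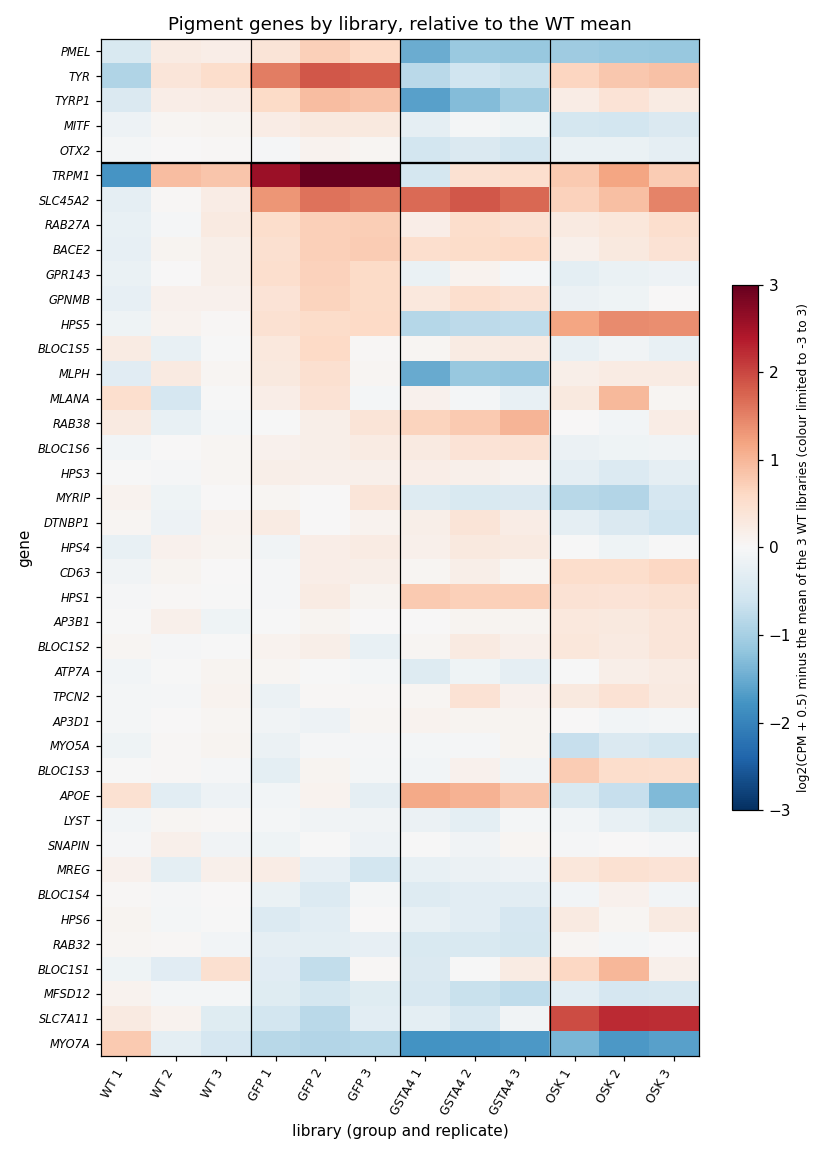
PMEL, TYR, TYRP1, MITF and OTX2 above the line and the 36 tested genes of the pigment list below it, in the 12 libraries. Colour is log2(CPM + 0.5) minus the mean of the WT libraries, with red above, blue below and the scale limited to 3 in either direction. TRPM1, TYR and SLC45A2 are red in GFP, and SLC45A2 is red in GSTA4 and OSK too. PMEL and TYRP1 are blue in GSTA4, and HPS5 is blue in GSTA4 and red in OSK.

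The wider list of eye-field and optic vesicle factors had 16 of 27 genes tested. In GSTA4 against GFP, 4 rose and 3 fell (median 0.11), 7 of 16 where 29.2% of all genes were called. Without GSTA4 replicate 2 that count was 4 in all. In OSK against GFP 1 rose and 7 fell (median -0.20), 8 of 16 beside 45.9% of all genes, a total near the background. The split by direction leaned lower, where 23.1% of all genes were called higher and 22.8% lower. DACH1, a partner of the EYA factors, had the widest difference between the ORF lines, with 647, 488 and 551 reads in GSTA4, 60, 71 and 70 in OSK, 220, 214 and 230 in GFP and 298, 287 and 406 in WT. DACH1 rose by 1.28 in GSTA4 (SE 0.103, adjusted p 6.13e-09) and fell by 1.80 in OSK (SE 0.128, adjusted p 3.71e-10).

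The other 4 named genes of the list were lower in OSK than in GFP. NR2F2, an orphan receptor of the dorsal optic vesicle, was at 132 CPM ± 6.95 in OSK, 195 ± 6.61 in GFP and 236 ± 9.67 in GSTA4, so that it fell in OSK by 0.56 (adjusted p 1.26e-07) and rose in GSTA4 by 0.28 (adjusted p 0.00117). TBX2, of the dorsal retina, fell in OSK by 0.71 (adjusted p 0.000568), MEIS2 by 0.48 (adjusted p 3.21e-06) and NR2F1 by 0.28 (adjusted p 0.0184). The NR2F1 call was lost without GFP replicate 3 (-0.244), OSK replicate 1 (-0.242) or OSK replicate 2 (-0.265). RAX, the homeobox gene that marks the eye field, had 53 to 94 reads per library. SIX6 had 4 reads in GFP replicate 1 and 0 elsewhere.

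The RPE label was checked with 15 marker genes, whose summed level was 1636 to 2058 CPM in WT, 1327 to 1537 in GFP, 857 to 921 in OSK and 1181 to 1195 in GSTA4. In each group, 10 of the 15 were above 3 reads in every library, and at 0 reads throughout were 3 in GSTA4, 1 in OSK and 0 in WT and GFP. The keratin KRT8 made up much of the sum, with 6870 to 23647 reads per library, and fell by 0.31 in GSTA4 and by 0.75 in OSK against GFP (adjusted p 0.00938 and 4.77e-07). KRT18, its partner keratin, fell by 0.46 in OSK (adjusted p 7.24e-05), and its value in GSTA4 was -0.10 (adjusted p 0.368). Genes of the visual cycle were low, and did not move alike. RPE65, its isomerase, had 0 to 10 reads per library, and RLBP1, a retinoid carrier, had 61, 76 and 83 reads in GFP and 5 to 25 in the other libraries. LRAT, which makes retinyl esters, had 200, 212 and 209 reads in GSTA4, 44, 44 and 76 in GFP, 21, 27 and 14 in OSK and 17, 10 and 23 in WT. Against GFP it rose by 1.87 in GSTA4 (SE 0.216, adjusted p 1.15e-06) and fell by 1.47 in OSK (SE 0.273, adjusted p 0.000162). RDH5, a retinol dehydrogenase, had 172, 208 and 215 reads in OSK, 87, 67 and 87 in GSTA4, 66, 60 and 82 in GFP and 57, 49 and 34 in WT, a rise of 1.44 in OSK against GFP (SE 0.187, adjusted p 2.15e-06).

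BEST1, an anion channel of the RPE, had 38 to 142 reads per library. SERPINF1, a secreted factor of the RPE, was at 152 CPM in GFP, 149.5 in GSTA4, 87.1 in OSK and 56.9 in WT on average. It was higher in GFP than in WT by 1.42 (adjusted p 5.82e-07), fell by 0.80 in OSK against GFP (adjusted p 5.92e-05), and had a value of -0.02 in GSTA4 (adjusted p 0.924). Of the 10 markers tested, 1 was higher and 4 were lower in GSTA4 than in GFP, where 29.2% of all genes were called. In OSK against GFP 1 was higher and 8 were lower, beside 45.9% of all genes, and in GFP against WT 7 were higher and 2 lower, beside 22.2%. The medians were -0.41, -1.10 and 1.203. Against WT, 5 markers were higher and 3 lower in GSTA4 (median 0.22), beside 38.6% of all genes. In OSK against WT, 2 markers were higher and 3 lower (median 0.04), beside 45.4% of all genes. Their summed level, led by KRT8, was lower in GFP than in WT, where 7 of the single markers and the pigment members PMEL, TYR and TYRP1 were higher.

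Markers of melanocytes from the neural crest, the other pigment cell, were low. Their 9 genes summed to 14.0 to 15.2 CPM in WT, 14.5 to 16.4 in GFP, 20.4 to 24.2 in OSK and 14.7 to 15.8 in GSTA4. PAX3 had 0 reads in GSTA4 and OSK, and SOX10 had 1 to 17 reads per library. Of the 5 markers tested, 3 were higher and 0 lower in OSK than in GFP, where 45.9% of all genes were called: ERBB3, TFAP2A and KIT. The higher OSK sum went mostly with ERBB3, which had 81, 99 and 92 reads in OSK and 1 to 20 in the GFP libraries (log2 3.28, SE 0.518, adjusted p 2.67e-05, or 4.83 without GFP replicate 1). KIT, added after its values had been seen, was low, with 11, 8 and 20 reads in OSK and 3, 2 and 2 in GFP (log2 2.35, adjusted p 0.0183). TFAP2A, a neural crest factor, rose by 0.39 in OSK against GFP (adjusted p 0.0408), a call that DESeq2 did not make (adjusted p 0.0758) and that was lost without GFP replicate 1 (0.317), GFP replicate 3 (0.36) or OSK replicate 2 (0.296). MC1R, the melanocortin receptor, had 54 to 99 reads per library and passed the threshold in neither ORF line against GFP. The 12 neural retina markers summed to 11.4 to 16.6 CPM in WT, 20.4 to 24.98 in GFP, 12.6 to 16.3 in OSK and 19.9 to 23.9 in GSTA4, mostly PDE6B, a rod phosphodiesterase subunit, with 138 to 313 reads. PDE6B was lower in OSK than in GFP by -0.45 (adjusted p 0.0126), a call lost without GFP replicate 2 (-0.40) or OSK replicate 1 (-0.37). NRL, a rod factor with 7 to 29 reads, was lower in GSTA4 than in GFP by -1.29 (adjusted p 0.0357, and 0.0672 by DESeq2), a call lost without GFP replicate 1 or 2 or any of the 3 GSTA4 libraries (-1.04 to -1.501). ARR3, the cone arrestin, had 12 to 37 reads. The part of these markers in the members' differences was not tested.

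Leaving out GFP replicate 1 or WT replicate 1 was repeated for 31 genes named outside the members. Of 16 called in GSTA4 against GFP, 13 were called in the same direction without GFP replicate 1, and TBX2, NR2F1 and NRL were not. Of 23 called in OSK against GFP, 21 were, and TFEB and TFAP2A were not. Of 15 called in GFP against WT, 14 were called without WT replicate 1, MEIS2 was not, and MYO7A and NR2F1 moved by over 1.5 times, NR2F1 to -0.22. Without GFP replicate 1, the pigment list had 3 higher and 7 lower in GSTA4 and 11 higher and 13 lower in OSK. The eye-field list had 2 higher and 3 lower in GSTA4 and 0 higher and 7 lower in OSK, and the RPE markers had 1 higher and 4 lower, and 1 higher and 8 lower. In GFP against WT without WT replicate 1, the pigment list had 7 higher and 3 lower and the RPE markers 7 higher and 2 lower.

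Genes whose log2(CPM + 0.5) was most like that of a member over the 12 libraries were sought among 13693 genes. The 12 libraries fall into 4 groups and share their group means, so Pearson's r is given as a description. For TYR these were TCF7 (r 0.985), HOMER2 (0.973) and LRRFIP2 (0.964), and for TYRP1 they were LRRC2 (0.984), ELN (0.980) and CSF1R (0.976). PMEL was most like RGS4 (0.991), MEGF6 (0.989) and SYT14 (0.988), and MITF most like CNN3-DT (0.983), SET (0.982) and TMEM164 (0.976). For OTX2 the genes were EPHB2 (0.987), ADTRP (0.986) and COL9A2 (0.981), and for LHX2 SMAD6 (0.992), LLGL2 (0.989) and SPNS2 (0.986). SIX3 was most like FLVCR2 (0.984), CLTB (0.982) and PPP1CA (0.980), and PAX6 most like ATP10D (0.949), EVL (0.937) and PTPRF (0.936). No member was among the 3 most alike of another member. Between members, the highest r over 12 libraries were 0.913 for TYR and TYRP1, 0.881 for OTX2 and PMEL, 0.863 for OTX2 and TYRP1, and 0.862 for MITF and PMEL. MITF had 0.396 with TYR and 0.312 with TYRP1. Some pairs were negative, the lowest MITF and SIX3 at -0.759.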

How the data were processed

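Poly(A) RNA of 12 ARPE-19 libraries was read with a NEBNext Ultra II kit, per the labels' protocols. The authors deposited raw read counts per gene in 1 table. The submitters' processing notes name STAR 2.7.1a, featureCounts 1.6.2 and human and mouse builds with no role. The annotation release and strand setting are not given in the sources used here. Of 60605 lines, 20014 had no symbol (0.485% to 0.822% of reads) and were left out of library sizes and tests.

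Counts were tested in R 4.3.3 with edgeR 4.0.16 (limma 3.58.1): TMM scaling, the filterByExpr filter by group (15179 genes kept), and the quasi-likelihood test, two-sided, in 1 fit of all 12 libraries with a mean per group. P-values were adjusted by Benjamini-Hochberg over all genes tested, with a threshold of 0.05. Members and gene lists were chosen with earlier results of these data known. From each list, the 5 genes with the lowest adjusted p over the 4 groups and a mean of at least 1 CPM were named, and for each member the 3 genes most alike. Genes said to be chosen after their values were seen, and others named for their role or position, fall outside that rule. The fit was tested on simulated data. The fit was repeated with DESeq2 1.42.0, with library size alone or RLE as the scaling, with a minimum mean of 1 CPM or no filter, with replicate number as a block, on only the 6 libraries compared, and with each library left out. Gene coordinates and exon lengths are from GENCODE (GRCh38), which may not be the authors' annotation.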

Additional observations from a re-analysis of the deposited data

How the results depend on the processing

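The numbers of members and of all genes called stayed within 1.5 times their values under every alternative run. Differences that changed sign were all uncalled. With no filter, PAX6 in GFP against WT went from 0.015 to -0.003, and ARR3 in GSTA4 against GFP went from 0.0067 to -0.0014 at library size alone, -0.0108 at a mean of 1 CPM and -0.0093 with only the 6 libraries. With 1 library left out at a time, the values ran from -0.0197 to 0.0365 for PAX6, -0.934 to 1.63 for ERBB3 and -0.0123 to 0.213 for MC1R in GFP against WT. In GSTA4 against GFP they ran from -1.48 to 0.604 for ERBB3, -0.112 to 0.0147 for ELP4, -0.204 to 0.270 for TFEB, -0.079 to 0.0718 for ARR3, -0.176 to 0.0917 for SERPINF1, -0.118 to 0.0214 for SIX3 and -0.138 to 0.329 for PAUPAR. They ran from -0.0655 to 0.0384 for ELP4 and -0.514 to 0.171 for ARR3 in OSK against GFP, and from -0.0205 to 0.0923 for SIX3 in GSTA4 against WT. Other calls that moved include TYR in OSK against WT with only the 6 libraries (adjusted p 0.0533), and TYRP1 there with no filter (adjusted p 0.00156) or without WT replicate 3 (0.0439).

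The labels state no pairing of the libraries by replicate number. Over 18 same-numbered pairs, the correlation of deviations from the group means ran from -0.0357 to 0.198. For other numbers it ran from -0.137 to 0.0891, and 8 of 12 libraries correlated best with their own number. These values lean towards some structure shared by replicate number. With the number as a block, the members called were 5 in GFP against WT, 6 in GSTA4 against GFP, 7 in OSK against GFP and 6 in OSK against GSTA4. The block gave an adjusted p of 0.0474 for PAX6 in OSK against GSTA4, 0.0388 for MITF in GSTA4 against WT and 0.00578 for TYRP1 in OSK against WT.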

Other observations

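The genes around the pigment genes were also read, within 5 Mb on either side, a window chosen after the results were seen. In GSTA4 against GFP, none of the 127 tested neighbours of PMEL and none of the 19 of TYRP1 had a lower log2 fold change than the gene itself. For TYR, 1 of 29 was lower. These 3 genes were known to fall steeply here, where the median size of change over all genes was 0.22. Their rank was thus largely fixed beforehand and is no test of a cause. Over all genes tested in this comparison, 14.7% were called higher and 14.6% lower. The TYR neighbours had 5 genes higher and 9 lower, with a median of -0.28, and the TYRP1 neighbours 1 higher and 5 lower, with a median of -0.09. Around HPS5, 16 of 41 neighbours were lower and 0 higher, with a median of -0.21, while HPS5 itself changed by -1.35. Around TRPM1, 16 of 41 neighbours were higher and 2 lower, with a median of 0.37, while TRPM1 fell by 2.73. In GFP against WT, 9 TYR neighbours were called higher and 0 lower, where 11% and 11.2% of all genes were. There HPS5 had 8 higher and 3 lower neighbours, and TRPM1 had 3 and 12. In OSK against GFP, 4 TYR neighbours were higher and 12 lower, beside 23.1% and 22.8% of all genes. In GSTA4 against WT the counts were 8 and 7 for TYR, 2 and 8 for HPS5, and 15 and 3 for TRPM1. The shares over all genes there were 19.7% and 19%. A cause was not tested.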
